A study of Mus musculus with 3 samples.

Results

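Preantral-type granulosa cells (GCs) were taken here as the cells of a mouse ovary scRNA-seq table that carried the granulosa gene *Inha*, several markers of GCs of follicles without an antrum, and no UMI of the LH receptor gene *Lhcgr*. A cell was a member when the natural log value of *Inha* was at least 1.5, when at least 3 of the 5 markers *Kctd14*, *Igfbp5*, *Gatm*, *Col18a1* and *Amh* were above 0, when *Lhcgr*, *Ptprc* and *Pecam1* were at 0 and *Cyp17a1* and *Dcn* below 2, and when fewer than 3 of the mitotic genes *Top2a*, *Mki67*, *Ube2c*, *Birc5*, *Ccnb2* and *Cenpf* were above 0. The members were thus chosen by measured values of 17 genes. The rule took 759 of 31776 cells, or 2.39% of the table (95% interval 2.22 to 2.56%).

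The labels name 3 libraries of mouse ovary made on the 10x Genomics platform, 1 each at 0, 1 and 6 h after hCG, the chorionic gonadotropin that binds to the receptor of LH. The methods of the study describe only ovaries of 21-day-old Kunming mice that had been given pregnant mare serum gonadotropin (PMSG), which acts like FSH, 48 h before. Whether the ovaries taken 1 and 6 h after hCG also received PMSG, and how many animals were pooled, is not given in the sources used here. Cell barcodes end in 1, 2 or 3, and no source ties an ending to a library, so cells are given as barcode sets 1, 2 and 3 with no time point. Each set was taken as 1 library without a replicate, which no label states. No test was run, therefore, and every interval covers counting error only.

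In the growing follicle, GCs surround the oocyte. Those of preantral follicles secrete anti-Müllerian hormone (AMH), supply the oocyte through gap junctions and through KIT ligand, and rest on a basal lamina. FSH then drives the formation of the antrum and the expression of aromatase and of the LH receptor in mural GCs, and LH or hCG turns these cells towards ovulation and progesterone synthesis.

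Set 1 held 136 members among 10384 cells (1.31%), set 2 held 208 among 9917 (2.10%), and set 3 held 415 among 11475 (3.62%). Members had a median of 6959 UMIs per cell, from 1713 to 29663, and their summed depth was 1151672, 1799995 and 2999747 UMIs in sets 1, 2 and 3. They were compared with 2914 Lhcgr-positive GCs (*Inha* at the same minimum, *Lhcgr* above 0, median 6896 UMIs) and with 9140 other Lhcgr-negative GCs (fewer than 3 of the 5 markers, median 5642 UMIs), both under the same limits on the other genes. A level below is the UMIs of a gene per 10000 summed UMIs of all cells of the group in 1 set. Genes outside the rule were measured in the very cells that the rule chose, so their differences are a description.

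Of the 18239 cells that met the *Inha* minimum, 1068 had at least 3 of the 5 markers and 956 of these had no *Lhcgr* UMI. The limits on *Cyp17a1*, *Dcn*, *Ptprc* and *Pecam1* left 903 cells and the mitotic genes 759. Among the members, 363 had 3 of the 5 markers, 295 had 4 and 101 had all 5. Exactly 3 markers were carried by 45.6%, 38.5% and 53.3% of members of sets 1, 2 and 3. *Kctd14* was found in 90.3% of members, *Igfbp5* in 85.8%, *Amh* in 66.8%, *Col18a1* in 66.1% and *Gatm* in 56.5%. A count of 0 for *Lhcgr* does not show that a cell lacked the transcript, since Lhcgr-positive GCs, chosen for a UMI of it, kept one in only 67.6% of cells when thinned to 3000 UMIs. No doublet caller was run, and the limits on other cell types were the only guard against mixed droplets.

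The 5 markers were set against a cell type outside the follicle, and their shares in members were fixed in part by the rule. Free RNA gives UMIs to cells that do not make a transcript, so 972 endothelial cells (median 5436.5 UMIs) were taken as a type that should lack granulosa genes. They were chosen by *Pecam1* of at least 1.5 and *Inha* below 1.5. This choice limits their *Inha* share and left out cells with more *Inha*, so their shares of granulosa genes may be too low as a measure of free RNA. Each cell was thinned to 3000 UMIs, which left out 12 members, 155 endothelial cells, 58 myeloid cells, 82 Lhcgr-positive and 1024 other Lhcgr-negative GCs. *Inha* itself was then found in 29.6% of endothelial cells and 98.5% of members, where the rule requires it. *Kctd14* was found in 69.5% of members (95% interval 66.0 to 72.8%) and 0.612% of endothelial cells. *Amh* was found in 39.9% against 0.245%, and *Igfbp5* in 66.1% against 8.20%. *Gatm*, which encodes the first enzyme of creatine synthesis, was found in 39.4% against 16.5%, and in 55.7% of 79 thinned myeloid cells. *Col18a1*, a collagen gene also expressed by endothelium, was found in 39.8% of members and in 63.4% of endothelial cells. The other Lhcgr-negative GCs, which the rule limits to fewer than 3 markers, had *Kctd14* in 5.61%, *Igfbp5* in 11.6%, *Col18a1* in 3.86%, *Amh* in 3.13% and *Gatm* in 1.2% of cells.

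Cells on both sides of the limits of the rule had the following levels. The 671 cells that missed the rule by 1 marker had a *Wt1* level of 0.939, against 1.88 in members with 3 markers, 2.73 with 4 and 3.24 with 5. The levels of *Itga6* were 1.93, 5.05, 6.99 and 9.08 in the same order. *Cyp11a1* was at 5.39, 1.83, 2.51 and 1.28, with no even order among the members. *Hsd11b2* was at 1.80, 2.74, 3.07 and 2.83. The 19 members with *Inha* between 1.5 and 1.7 had *Foxl2* at 4.33, and the 21 cells just below, between 1.3 and 1.5, had it at 3.15. In the same order, *Wt1* was at 2.91 and 2.16 and *Itga6* at 10.9 and 8.35. *Cyp11a1* was at 0.945 and 4.79, from 12 and 82 UMIs, and *Hsd11b2* at 1.89 and 0.701, from 24 and 12 UMIs.

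Markers of other cells were low but not absent. The 8 endothelial markers summed to levels of 0.191, 0.322 and 0.350 in members of sets 1, 2 and 3, with *Pecam1* at 0 by the rule and *Tek* also at 0 in set 1. The 8 myeloid markers summed to 0.104, 0.133 and 0.123, with *Ptprc* at 0 by the rule. All 8 oocyte markers were at 0 in set 1, and only *Gdf9*, *Ooep* and *Nlrp5* in set 2 and *Ooep* in set 3 had any UMI, with summed levels of 0.0167 and 0.00667. The 9 stroma markers outside the rule summed to 3.45, 1.96 and 3.01, with *Apod* at 0. The 8 theca markers outside the rule, among them genes of steroid synthesis that GCs also express, summed to 9.08, 14.9 and 13.8, against 105, 166 and 93.6 in Lhcgr-positive GCs. The 7 smooth muscle markers summed to 3.47, 3.03 and 4.39, but a single cell held 85.6%, 72.0% and 50.1% of the *Acta2* UMIs of the members of sets 1, 2 and 3. The part of these transcripts in the results below was not tested. No measurement of follicle stage accompanies the cells, so the name rests on the markers. Of these, *Igfbp5* is also on the list of markers of atretic (degenerating) GCs. The 10 atretic markers outside the rule summed to 16.1, 14.97 and 15.45 in members of sets 1, 2 and 3. They summed to 14.88, 14.69 and 12.55 in Lhcgr-positive GCs and to 20.56, 20.96 and 15.2 in the other Lhcgr-negative GCs. The 7 cumulus markers summed to 1.05, 1.54 and 0.663, against 4.61, 8.97 and 3.11 in Lhcgr-positive GCs. Whether members came from atretic follicles was not tested.

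Against Lhcgr-positive GCs, 2988 genes outside the rule were at a level of 0.5 or more in 1 of the groups in each set. Of these, 92 (3.08%) were higher in members by 2-fold or more in each of the 3 sets and 113 (3.78%) lower by as much. With library totals that leave out the 50 most abundant genes, the split was 144 higher and 113 lower. Such totals shift the log2 ratios by only 0.06, 0.07 and 0.10 in sets 1, 2 and 3, but they also raise each level against the same minimum, so other genes could be compared. Ribosomal protein genes made up 20.5%, 21.9% and 20.3% of the UMIs of members of sets 1, 2 and 3, against 14.7%, 15.5% and 12.3% in Lhcgr-positive GCs. Mitochondrial transcripts took 5.48%, 6.23% and 4.54% against 5.21%, 5.4% and 3.47%. The part of these shares in the counts was not tested. Against the other Lhcgr-negative GCs, 63 of 2939 genes (2.14%) were higher and 55 (1.87%) lower. With a minimum of 2 of the 5 markers, these counts were 34 and 24, and 57 genes were higher than in Lhcgr-positive GCs. Where only 2 sets had to pass, 77 to 97 were higher and 75 to 130 lower than in the other Lhcgr-negative GCs, and 115 to 168 higher and 139 to 216 lower than in Lhcgr-positive GCs, with the most lower genes without set 1 and the most higher genes without set 3. Both comparisons share the members, and many genes below are given with values from only 1 of them.

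By the smallest of their ratios over the 3 sets, *Pln* and *Wfdc10* were the highest over Lhcgr-positive GCs, and they were the first and the third over the other Lhcgr-negative GCs, where *Tgfbr3l* was the second. *Pln* encodes phospholamban, the inhibitor of the calcium pump of the endoplasmic reticulum, and its levels in members were 0.868, 0.844 and 0.757 in sets 1, 2 and 3. Lhcgr-positive GCs had *Pln* at 0.0189, 0.0182 and 0.0104, so that the ratios were 46.0 (95% interval 29.2 to 75.1), 46.4 (27.3 to 85.0) and 72.7 (30.7 to 226). The other Lhcgr-negative GCs lay below the members by 29.6, 31.3 and 18.3 times. The *Pln* transcript was found in 19.5% of thinned members and 0.490% of endothelial cells, so most members had no UMI of it at that depth.

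*Wfdc10*, a gene of the whey acidic protein family, was at 2.57, 1.79 and 1.95 in members and at 0.0590, 0.0510 and 0.0271 in Lhcgr-positive GCs. The ratios were 43.5 (33.7 to 56.9), 35.2 (25.5 to 49.8) and 72.2 (41.9 to 136), and those over the other Lhcgr-negative GCs were 16.4, 16 and 11.3. The intervals of the levels did not overlap in any set, though many members had no UMI. *Wfdc10* was found in 39.6% of thinned members, 1.2% of Lhcgr-positive GCs and 0.612% of endothelial cells.

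The promoters of these genes are shown because they lead the comparison with Lhcgr-positive GCs. They were read from RefSeq for GRCm38.p6, from 250 bases before to 50 after the annotated start, and capitals mark the letters AGGTCA, the half-site that nuclear receptors such as NR5A1 recognise. The window of *Wfdc10* is chr2:164655796-164656095 on the plus strand, and the capitals begin 214 bases before its start. The window of *Pln* is chr10:53337436-53337735 on the plus strand and holds no AGGTCA on either strand.
Wfdc10: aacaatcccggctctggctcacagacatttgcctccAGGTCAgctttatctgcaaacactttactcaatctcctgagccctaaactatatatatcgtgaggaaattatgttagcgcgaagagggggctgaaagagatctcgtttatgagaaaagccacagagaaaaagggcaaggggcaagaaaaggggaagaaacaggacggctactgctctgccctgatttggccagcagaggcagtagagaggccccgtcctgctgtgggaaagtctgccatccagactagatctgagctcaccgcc
Pln: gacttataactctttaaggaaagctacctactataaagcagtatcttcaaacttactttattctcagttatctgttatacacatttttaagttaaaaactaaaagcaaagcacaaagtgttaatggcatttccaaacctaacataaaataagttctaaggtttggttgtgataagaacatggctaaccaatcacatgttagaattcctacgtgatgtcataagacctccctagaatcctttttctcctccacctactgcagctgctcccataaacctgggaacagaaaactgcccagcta
Of 18 genes looked up, the rule markers and *Inha* among them, 12 had a promoter in the RefSeq table. AGGTCA occurred on either strand in 5 of the 12, *Chp2*, *Gatm*, *Gmpr*, *Inha* and *Wfdc10*, and in 16.3% of all 32851 promoters of the table. GATA was found in 8 of the 12 and in 57.9% of all promoters, and the cAMP response element TGACGTCA in *Slc18a2* alone of the 12 and in 1.79% of all. These matches describe letters in a window and no binding was measured.

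Among the transcription factors of granulosa identity, *Wt1* and *Emx2* were higher in members than in both other groups in every set, and *Runx2* was lower than in Lhcgr-positive GCs. These were 3 of the 10 listed factors that could be compared with Lhcgr-positive GCs, and the median log2 ratio of the 10 was 0.63 beside 0.05 for all genes compared. The shares of all genes were 3.08% higher and 3.78% lower. *Wt1*, a zinc finger factor of the early gonad, was at 3.35, 2.88 and 1.81 in members and at 0.148, 0.113 and 0.125 in Lhcgr-positive GCs. The ratios were 22.6 (19.0 to 27.1), 25.5 (20.4 to 32.2) and 14.5 (11.1 to 19.2). The other Lhcgr-negative GCs lay between, with 0.335, 0.317 and 0.312. *Wt1* was spread over many cells, since the 5 members with most UMIs held only 14.2%, 11% and 6.63% of them. Endothelial cells had *Wt1* at 1.64, 1.38 and 0.683, which is below members in every set but above both other GC groups.

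*Emx2*, a homeobox factor of the urogenital ridge, was at 1.11, 0.894 and 0.833 in members, and the ratios over Lhcgr-positive GCs were 8.16 (6.44 to 10.3), 7.93 (6.10 to 10.3) and 6.67 (5.01 to 9.0). *Runx2*, a factor induced around ovulation, was at 0.0868, 0.15 and 0.217 in members against 1.10, 1.14 and 4.76. *Foxl2*, which maintains granulosa fate, was at 3.95, 3.20 and 2.42 in members. Its ratio over Lhcgr-positive GCs was only 1.28 (1.16 to 1.41) in set 1 but 4.15 and 4.28 in sets 2 and 3, where Lhcgr-positive GCs had 0.772 and 0.564 against 3.08 in set 1. *Gata4* had ratios of 0.774, 1.44 and 2.11 and *Gata6* of 0.832, 1.3 and 0.857, neither past 2-fold in all sets.

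**Figure D1:**
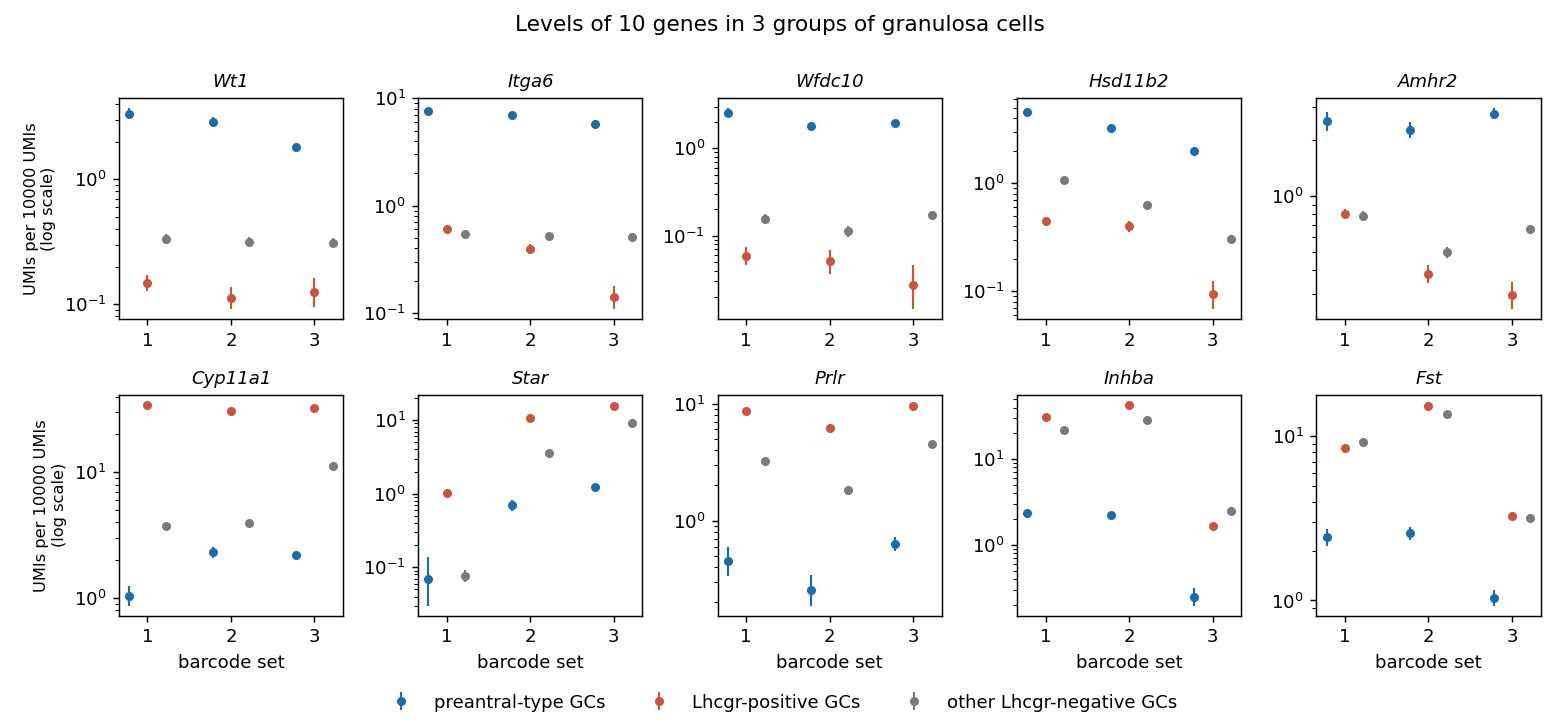
Levels (UMIs per 10000 summed UMIs, log scale) of 10 genes in preantral-type, Lhcgr-positive and other Lhcgr-negative GCs, by barcode set; points are levels and bars exact 95% Poisson intervals. *Wt1* in preantral-type GCs lies at 3.35, 2.88 and 1.81, above the Lhcgr-positive GCs in every set.

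In the AMH, inhibin, activin and BMP list, the receptor and a SMAD gene were higher in members while activin and its binding protein were lower. Of 10 listed genes compared with Lhcgr-positive GCs outside the rule, *Amhr2* and *Smad3* were higher and *Inhba*, *Fst* and *Id2* lower in every set. Over all genes compared, 3.08% were higher and 3.78% lower. The median log2 ratio of the 10 was -0.50 beside 0.05 for all genes. Against the other Lhcgr-negative GCs, 11 were compared, with *Amhr2* and *Smad3* higher and *Inhba*, *Fst* and *Id2* lower. Over all genes compared there, 2.14% were higher and 1.87% lower. The median log2 ratio of the 11 was -0.95 beside 0.01 for all genes. *Amhr2*, the receptor of AMH, was at 2.53, 2.28 and 2.77 in members, and the ratios over Lhcgr-positive GCs were 3.15 (2.76 to 3.60), 5.98 (5.15 to 6.95) and 9.43 (7.88 to 11.4). It was found in 53.7% of thinned members and 1.10% of endothelial cells. *Smad3*, which carries signals of activin and TGF-beta, had ratios of 3.89, 4.0 and 3.26.

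*Inhba*, the beta A subunit of activin and inhibin A, was at 2.34, 2.21 and 0.247 in members, and at 31.2, 42.7 and 1.65 in Lhcgr-positive GCs. The levels in members were 13.3, 19.3 and 6.67 times lower. The members' *Inhba* UMIs came from few cells, since 5 cells held 76.2%, 58.0% and 54.1% of them in sets 1, 2 and 3. *Inhba* was found in 21.5%, 22.8% and 5.17% of thinned members and in 15.1%, 23.5% and 3.13% of endothelial cells. *Fst*, which encodes the activin-binding protein follistatin, was at 2.42, 2.56 and 1.04 against 8.51, 15.3 and 3.26. *Inhbb*, the beta B subunit, was 7.33 and 8.58 times lower in members of sets 1 and 2 but had a ratio of 1.11 (0.859 to 1.44) in set 3.

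Few genes of FSH signaling could be compared at these depths. Of 13 listed genes, 5 could be compared with Lhcgr-positive GCs, none was higher in every set, and *Fosl2* and *Sgk1* were lower. The share of all genes that were lower was 3.78%. The median log2 ratio of the 5 was -1.44 beside 0.05 for all genes compared. Against the other Lhcgr-negative GCs, 5 were compared and none was higher or lower in every set. Their median log2 ratio was -1.21 beside 0.01 for all genes compared. *Fshr*, the FSH receptor gene, lay under the minimum level in members, at 0.243, 0.328 and 0.0533, against 0.628, 0.510 and 0.416 in Lhcgr-positive GCs. The ratios were 0.387 (0.256 to 0.564), 0.643 (0.481 to 0.846) and 0.128 (0.0718 to 0.213). *Fshr* was found in 4.02% of thinned members, 15.8% of Lhcgr-positive GCs and 0.734% of endothelial cells. By set, the shares were 7.41%, 6.31% and 1.72% of members against 0.397%, 1.17% and 0.446% of endothelial cells, and in set 3 the intervals of 0.696 to 3.52% and 0.0113 to 2.46% overlapped. *Fosl2*, the AP-1 factor that the study is about, was at 1.10, 1.64 and 0.843 in members and 3.09, 2.72 and 2.06 times lower than in Lhcgr-positive GCs. Endothelial cells had *Fosl2* at 1.33, 2.24 and 0.867.

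Many genes of steroid synthesis were lower in members than in Lhcgr-positive GCs. Of 9 listed genes compared with Lhcgr-positive GCs, 7 were lower in members in every set and none higher, with a median log2 ratio of -3.32 beside 0.05 for all genes. The share of all genes that were lower was 3.78%. *Cyp11a1*, the enzyme that cuts the side chain of cholesterol, was at 1.05, 2.32 and 2.20 in members against 34.1, 30.6 and 32.2. *Star*, which moves cholesterol into mitochondria, was at 0.0695, 0.700 and 1.22 against 1.04, 10.5 and 15.8. *Hsd3b1* was at 4.46, 4.14 and 4.61 against 46.0, 41.5 and 18.3. The thinned share with *Cyp11a1* was 20.3% in members and 18.4% in endothelial cells, and 5 cells held 76.3% of its UMIs in set 2 and 56.5% in set 3. *Cyp19a1*, the aromatase gene, was found in 3.08% of members and 2.45% of endothelial cells against 40.5% of Lhcgr-positive GCs. Against the other Lhcgr-negative GCs, 2 of 6 steroid genes, *Hsd3b1* and *Fdx1*, were lower in every set, beside 1.87% of all genes.

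Of the markers of antral mural GCs, 4 of 6 compared with Lhcgr-positive GCs were lower in every set, *Cyp11a1*, *Inhba*, *Nap1l5* and *Comp*. All 3 luteal markers compared were lower too, *Star*, *Sfrp4* and *Scarb1*, beside 3.78% of all genes. Against the other Lhcgr-negative GCs, 4 of 8 antral mural markers were lower, *Inhba*, *Nap1l5*, *Comp* and *Grem1*, beside 1.87% of all genes. The 1 luteal marker compared there was not. *Prlr*, the prolactin receptor gene, led the genes lower than in Lhcgr-positive GCs. It was at 0.452, 0.256 and 0.633 in members against 8.71, 6.17 and 9.47. *Comp*, a cartilage matrix gene, was at 0.269, 0.0444 and 0.0567 against 3.59, 2.26 and 1.06. *Vnn1*, a pantetheinase gene, was 14.8, 12.8 and 16.2 times lower. Against the other Lhcgr-negative GCs, *Inhba* and *Zpld1* led the lower genes. *Plod2*, a collagen lysyl hydroxylase, was 3.89, 5.14 and 4.05 times lower than in that group, and *Pparg*, a nuclear receptor of lipid metabolism, 3.62, 5.84 and 7.93 times lower. *Grem1*, a BMP antagonist of antral and cumulus GCs, was 8.38, 8.39 and 17.3 times lower.

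**Figure D2:**
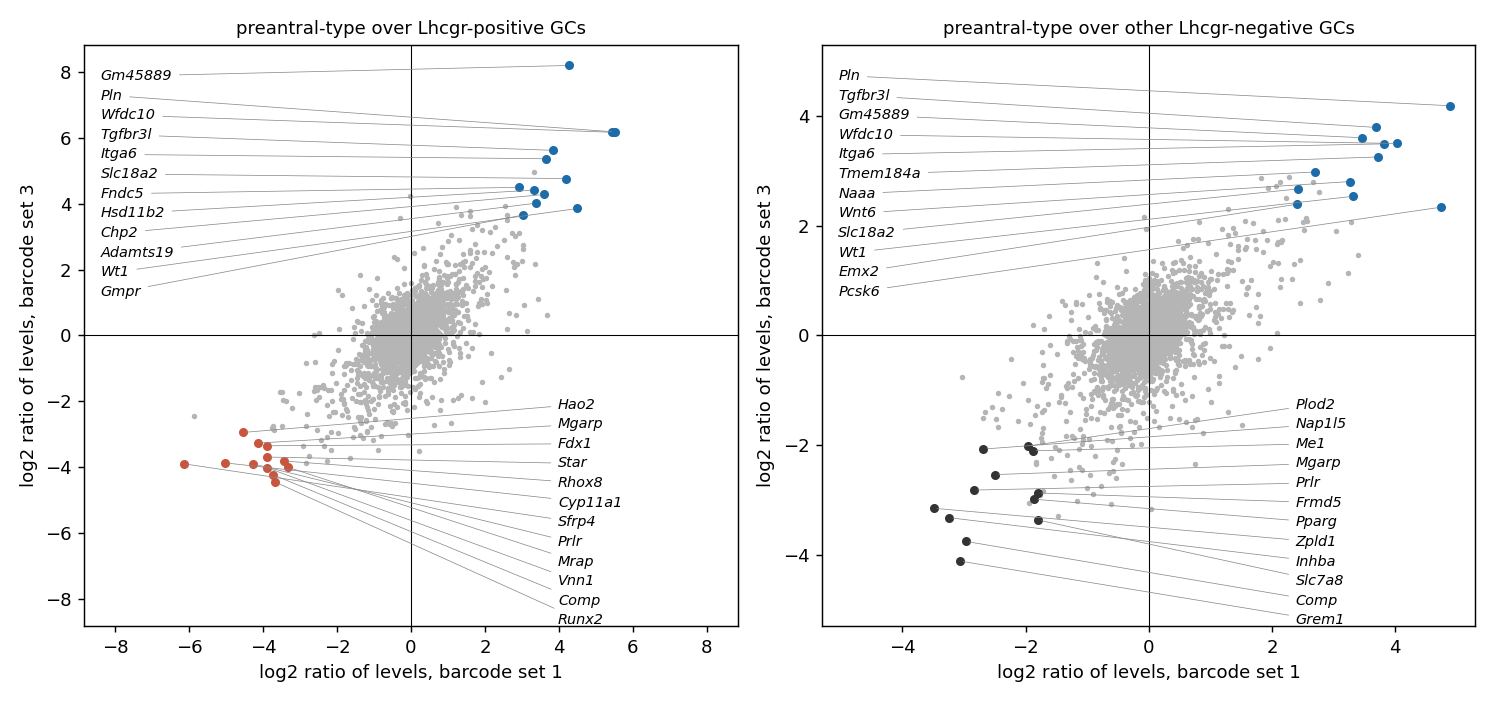
Log2 ratio of levels in barcode set 1 (horizontal) and set 3 (vertical) for each gene compared, preantral-type over Lhcgr-positive GCs (left) and over other Lhcgr-negative GCs (right), with rule genes left out. The 12 genes farthest in each direction in all 3 sets are named; *Pln* and *Wfdc10* are among the higher genes and *Inhba* among the lower ones at right.

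Genes of contact with matrix and oocyte differed one by one. *Itga6*, an integrin that binds laminin, was at 7.58, 6.93 and 5.76 in members and at 0.602, 0.393 and 0.140 in Lhcgr-positive GCs. The ratios were 12.6 (11.4 to 13.9), 17.6 (15.6 to 19.99) and 41.3 (32.3 to 53.5), and those over the other Lhcgr-negative GCs 14.0, 13.3 and 11.3. It was 1 of 7 matrix genes compared to be higher, and *Fbln1* was lower. The shares of all genes were 3.08% higher and 3.78% lower against Lhcgr-positive GCs, and 2.14% and 1.87% against the others. Endothelial cells, which use the same integrin, had *Itga6* at 3.02, 2.59 and 3.17. *Itga6* was found in 69.7% of thinned members, 9.75% of Lhcgr-positive GCs and 46.1% of endothelial cells.

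*Kitl*, the ligand through which GCs act on the oocyte, was even over the members' sets, at 3.0, 2.79 and 2.94. Lhcgr-positive GCs had *Kitl* at 1.51, 4.27 and 0.40, so the ratio was 1.99 (1.77 to 2.23), 0.654 (0.595 to 0.718) and 7.35 (6.28 to 8.63). Endothelial cells make *Kitl* as well and had 4.86, 5.18 and 2.48. *Gja1*, the gap junction gene of GCs, was at 6.89, 7.37 and 5.08 in members against 20.6, 24.4 and 2.86, lower in sets 1 and 2 and higher in set 3. Of the 13 oocyte communication genes 3 could be compared, and none passed 2-fold in every set.

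Of 18 genes of WNT, Notch and hedgehog signaling, 4 could be compared with each other group, 1 was higher in members in every set in each comparison and none lower. Among all genes, 3.08% were higher than in Lhcgr-positive GCs and 2.14% higher than in the others. *Wnt6*, a ligand outside that list and among the 12 highest over the other Lhcgr-negative GCs, was at 0.721, 0.917 and 0.773 in members, and 9.59, 15.3 and 7.0 times above the other Lhcgr-negative GCs. *Wnt4*, a signal of ovary determination, was at 1.56, 2.22 and 4.18, and 8.26, 4.94 and 3.75 times above the same group. Over Lhcgr-positive GCs the *Wnt4* ratio was 2.64, 1.71 and 3.32, under 2-fold in set 2. *Wnt4* was found in 48.5% of thinned members and 2.20% of endothelial cells. *Ptch1*, the hedgehog receptor, was the listed gene that passed against Lhcgr-positive GCs, 2.09, 5.46 and 2.38 times above them. *Hes1*, a target of Notch, was at 3.43, 2.56 and 1.17 in members, with ratios of 6.22, 2.22 and 1.6 over Lhcgr-positive GCs, but endothelial cells had 2.35, 2.92 and 1.07. Of the IGF system, 5 listed genes could be compared with each other group. None passed in every set against Lhcgr-positive GCs, and against the others *Igfbp2* was higher and *Htra1* lower, with a median log2 ratio of -0.70. Among all genes compared with the others, 2.14% were higher and 1.87% lower, with a median of 0.01. *Igfbp2*, an IGF-binding protein, was at 2.23, 1.41 and 1.54 in members, with ratios of 5.48, 5.39 and 2.59 over the other Lhcgr-negative GCs.

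Other genes of the highest ratios are known for varied roles. *Pcsk6*, a proprotein convertase that cuts TGF-beta family precursors, was at 1.32, 0.933 and 1.04 in members, 26.8 (20.1 to 36), 13.7 (10.9 to 17.3) and 5.06 (4.37 to 5.86) times above the other Lhcgr-negative GCs. *Tmem184a*, which encodes a membrane protein, was at 0.816, 0.822 and 1.51 in members, 13.1, 15.4 and 9.55 times above the same group. *Naaa*, an enzyme that cleaves fatty acid ethanolamides, was 6.48, 5.68 and 7.89 times above them. *Slc18a2*, the vesicular monoamine transporter, was at 2.26, 2.42 and 1.08 in members, 18.3, 21.4 and 27.2 times above Lhcgr-positive GCs. *Hsd11b2*, which inactivates corticosteroids, was at 4.56, 3.29 and 2.0, with ratios of 10.1, 8.24 and 21.3. *Gmpr*, a guanosine monophosphate reductase, had 8.16, 10.7 and 12.6. *Tgfbr3l*, a gene related to the co-receptor betaglycan, had 14.2, 36.3 and 49.3. *Fndc5*, the precursor gene of irisin, had 7.58, 12.4 and 22.6. The remaining genes among the 12 highest over Lhcgr-positive GCs were *Gm45889*, *Chp2* and *Adamts19*, and the ratio of *Gm45889* in set 3 rests on 1 UMI in Lhcgr-positive GCs.

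Immediate early genes, which respond to tissue dissociation, did not separate the groups in every set. None of 13 genes compared passed 2-fold in every set in either direction, with a median log2 ratio of 0.33 over Lhcgr-positive GCs. *Fos* was at 32.7, 38.8 and 24.8 in members against 14.4, 14.0 and 15.6, and its ratio was under 2 in set 3, at 1.59 (1.54 to 1.64).

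Cells that met the rest of the rule but carried mitotic genes were left out of the members. Of the 903 cells that met the rest of the rule, 144 had 3 or more mitotic genes, or 15.9% (13.6 to 18.5%). The share was 15.9% (14.7 to 17.1%) for Lhcgr-positive GCs and 15.5% (14.8 to 16.2%) for the others, so the intervals overlapped. By set the share was 11.7%, 11.1% and 19.4% for the preantral-type cells. It was 16.3%, 13.1% and 19.1% for the Lhcgr-positive and 16.5%, 11.9% and 17.8% for the other GCs. Mitotic cells were deeper, with a median of 13083.5 UMIs against 6959 in members. With mitotic cells kept, the median was 7538 UMIs for preantral-type, 7498 for Lhcgr-positive and 6047 for the other GCs. The shares were taken without thinning, so they are not corrected for depth. The cyclin gene *Ccnd2* was at 4.48, 4.15 and 4.17 in members, with ratios of 1.95, 2.12 and 4.52 over Lhcgr-positive GCs. The histone gene *Hist1h1b* was the 1 of 3 cell cycle genes outside the rule that passed in every set, at 0.808, 1.11 and 0.740 against 0.120, 0.125 and 0.158, while endothelial cells had 1.02, 0.276 and 0.572. The share of all genes that were higher than in Lhcgr-positive GCs was 3.08%.

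Between barcode sets, genes were compared within the members and, side by side, within the other GCs. Set 2 over set 1 gave 32 higher genes (0.927%) and 16 lower (0.463%) of 3452 at a fold of 2, or 40 and 31 with totals that leave out the 50 most abundant genes. The balance turned at a minimum level of 0.2, with 67 higher and 112 lower, and at a fold of 1.5, with 95 and 146, while a minimum level of 1 gave 12 and 2. Set 3 over set 1 gave 94 higher (2.61%) and 134 lower (3.71%) of 3607, and set 3 over set 2 gave 107 higher (3.08%) and 98 lower (2.82%) of 3471. With members of at least 4 markers, 50 genes were lower in set 2 than in set 1 and 145 higher in set 3 than in set 1, and with a minimum of 2 markers the last count was 166. In Lhcgr-positive GCs the counts were 308 and 348 of 3642, 416 and 397 of 3885, and 650 and 336 of 3659. The median absolute log2 ratio was 0.18, 0.31 and 0.30 in members, against 0.46, 0.44 and 0.58 in Lhcgr-positive GCs and 0.39, 0.43 and 0.52 in the others. Of the lower genes of set 2 against set 1, 7 were counted when the cell with most UMIs of each gene was taken out of each set. Since each set was taken as 1 library, a difference between sets cannot be told apart from one between libraries.

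**Figure D3:**
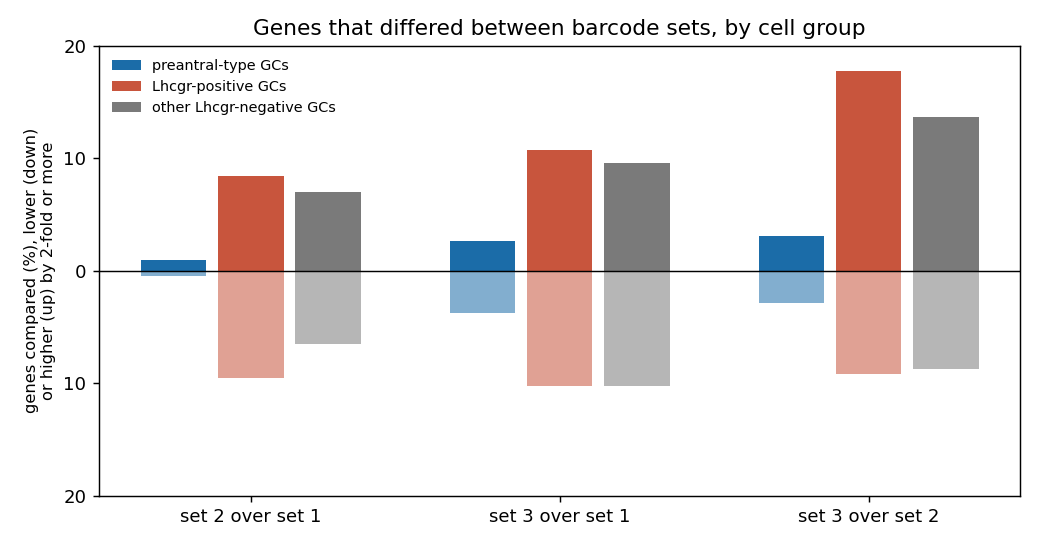
Share of the genes compared (%) that are higher (up) or lower (down) by 2-fold or more between barcode sets, for preantral-type, Lhcgr-positive and other Lhcgr-negative GCs. In preantral-type GCs the bars reach 0.927% higher and 0.463% lower for set 2 over set 1, and 3.08% and 2.82% for set 3 over set 2.

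Of 15 listed genes known to answer LH or hCG, 8 could be compared between sets 1 and 2. In set 2, 5 of the 8 were higher by 2-fold or more, *Areg*, *Ereg*, *Tnfaip6*, *Star* and *Adamts1*, and none lower. Of all genes compared, 0.927% were higher. *Areg*, an EGF-like ligand that relays the LH signal, had 0 UMIs in members of set 1, 215 in set 2 and 4 in set 3, at least 45.9-fold higher in set 2 against a floor of 3 UMIs. In Lhcgr-positive GCs it was at 0.0338, 18.8 and 0.15. The share of thinned members of set 2 with *Areg* was 13.1% (8.82 to 18.5%), against 11.4% (8.26 to 15.3%) of endothelial cells and 65.7% of Lhcgr-positive GCs, and 5 cells held 69.3% of the UMIs. The part of free RNA in these UMIs was not tested.

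*Ereg*, a ligand of the same family, gave the same picture, with 0, 0.561 and 0.113 in members. Its share in set 2 was 11.7% of thinned members, 11.4% of endothelial cells and 69.4% of Lhcgr-positive GCs. *Tnfaip6*, which crosslinks the matrix of the expanding cumulus, was 94.7 times higher in set 2 in members, but set 1 held a single UMI, so that the interval begins at 16.7, and its share was 8.25% of members against 7.62% of endothelial cells. *Rgs2*, a brake on G protein signaling, was at 6.56, 7.78 and 4.89 in members, or 1.59 times lower in set 3 than in set 2, while Lhcgr-positive GCs had 1.74, 22.4 and 13.1. *Rgs2* was found in 71.1%, 76.7% and 69.2% of thinned members of the 3 sets, above the 15.5%, 36.7% and 33.5% of endothelial cells.

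Several of the 8 genes most above set 1 in set 3 were set against the endothelial share too. *Nts*, the neurotensin gene, had 0 UMIs in members of set 1 and a level of 2.81 in set 3, at least 108-fold higher. Of thinned members of set 3, 23.2% had *Nts*, against 25.9% of endothelial cells and 50.1% of Lhcgr-positive GCs, and 5 members held 69.4% of the UMIs. *Sult1e1*, an estrogen sulfotransferase gene, was at least 57.2-fold higher, with shares of 14.8% of members and 13.4% of endothelial cells against 74.8% of Lhcgr-positive GCs. *Timp1*, an inhibitor of matrix proteases, was at 0.20, 0.211 and 1.97 in members and was found in 34.2% of them in set 3, below the 62.5% of endothelial cells. *Rhox8*, a homeobox gene of the X chromosome cluster, was found in 20.9% of members and 14.7% of endothelial cells in that set. *Sfrp4*, a secreted WNT antagonist, was 24.3 times higher in set 3 (10.3 to 75.5), from 5 UMIs in set 1, with shares of 11.8% and 8.04%. *Spp1*, the osteopontin gene, was at least 20.1-fold higher in set 3, at 0.523 in members and 0.161 in endothelial cells.

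The steroid list was higher in set 3 than in set 1 for 7 of 9 genes compared, among them *Star*, *Cyp11a1*, *Fdx1*, *Scarb1*, *Hmgcs1* and *Sult1e1*, and lower for none. Of all genes compared, 2.61% were higher. For *Cyp11a1* the share of thinned members was 26.7% in set 1 and 20.2% in set 3, so its higher level came with no higher share. *Star* was 17.6 times higher (8.82 to 41.0), from 8 UMIs in set 1, and 5 of the 415 members of set 3 held 59.3% of its UMIs there, with a share of 13.3% of members of set 3 against 8.48% of endothelial cells. *Hmgcs1*, an enzyme of cholesterol synthesis, was at 1.13, 0.911 and 2.49 in members, and endothelial cells had 1.25, 1.60 and 1.91. *Mrap*, an accessory protein of the ACTH receptor, was 7.47 times higher in set 3 (4.87 to 12), with shares of 19.2% of members and 16.1% of endothelial cells.

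Collagen IV genes, which code for the network of the basal lamina, were lowest in set 2. *Col4a1* was at 1.09, 0.461 and 1.22 in members and *Col4a2* at 0.703, 0.261 and 0.573, but endothelial cells had *Col4a1* at 17.5, 14.8 and 21.2. Both were among the 16 lower genes of set 2 over set 1. *Igf1*, a growth factor of GCs, was at 0.608, 0.333 and 1.0, or 3.0 times higher in set 3 than in set 2 (2.27 to 4.03), and endothelial cells had only 0.253, 0.194 and 0.20. *Dhh*, a hedgehog ligand, was at 0.208, 0.167 and 0.540 in members against 0.185, 0.371 and 0.350 in endothelial cells.

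*Mycl* and *Myc* were lower in members of set 3 than in those of sets 1 and 2, and their shares in sets 1 and 2 were above those of endothelial cells. *Mycl*, a MYC family factor, was at 1.34, 1.39 and 0.177 in members, 7.57 times lower in set 3 than in set 1, and was found in 24.4%, 26.2% and 3.94% of thinned members against 0.397%, 1.76% and 0.446% of endothelial cells. *Myc* was at 1.38, 1.92 and 0.313, with shares of 28.9%, 35.9% and 8.13% against 9.52%, 11.1% and 4.46%. Lhcgr-positive GCs had *Mycl* at 0.215, 0.120 and 0.0250 and *Myc* at 0.487, 0.363 and 0.162, so both lay below the members in every set. *Grem1* was 19.7 and *Inhba* 9.47 times lower in set 3 than in set 1, but 5 cells held 76.2% of the *Inhba* UMIs of set 1. *Grem1* was at 0.590, 0.256 and 0.0300 in members and at 0.225, 0.0777 and 0.00556 in endothelial cells.

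Some heat shock and immediate early genes differed between sets. *Hspa1a* was at 1.09, 2.39 and 0.540 in members and at 1.22, 1.02 and 1.03 in Lhcgr-positive GCs, and *Zfp36* at 1.44, 2.07 and 0.687. In set 3 over set 1, 4 of 13 genes of that list were lower, *Hspa1a*, *Hspa1b*, *Zfp36* and *Nr4a1*, and none higher. Of all genes compared, 3.71% were lower and 2.61% higher. Of 6 cell cycle genes compared, 1 was higher in set 3 than in set 1, *Mcm3*, beside 2.61% of all genes. In set 3 over set 2, 3 were higher, the replication genes *Mcm2*, *Mcm3* and *Mcm6*, beside 3.08% of all genes. *Mcm3* was at 0.304, 0.194 and 0.723.

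The granulosa genes described above had these values over the sets. *Wt1* was 1.85 times lower in set 3 than in set 1 and was found in 57.0%, 55.8% and 38.2% of thinned members. *Hsd11b2* was 2.28, *Foxl2* 1.63 and *Itga6* 1.32 times lower in set 3. *Amhr2* had a ratio of 1.10 (0.958 to 1.26) and *Kitl* of 0.978 (0.862 to 1.11) for set 3 over set 1. *Runx1* had 1.18 (0.963 to 1.44) in members, while in Lhcgr-positive GCs it was at 0.538, 3.30 and 8.43. *Wnt4* was 2.67 times higher in set 3 (2.29 to 3.14). The part of the number of markers per member, which differed between the sets, in these values was not tested.

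**Figure D4:**
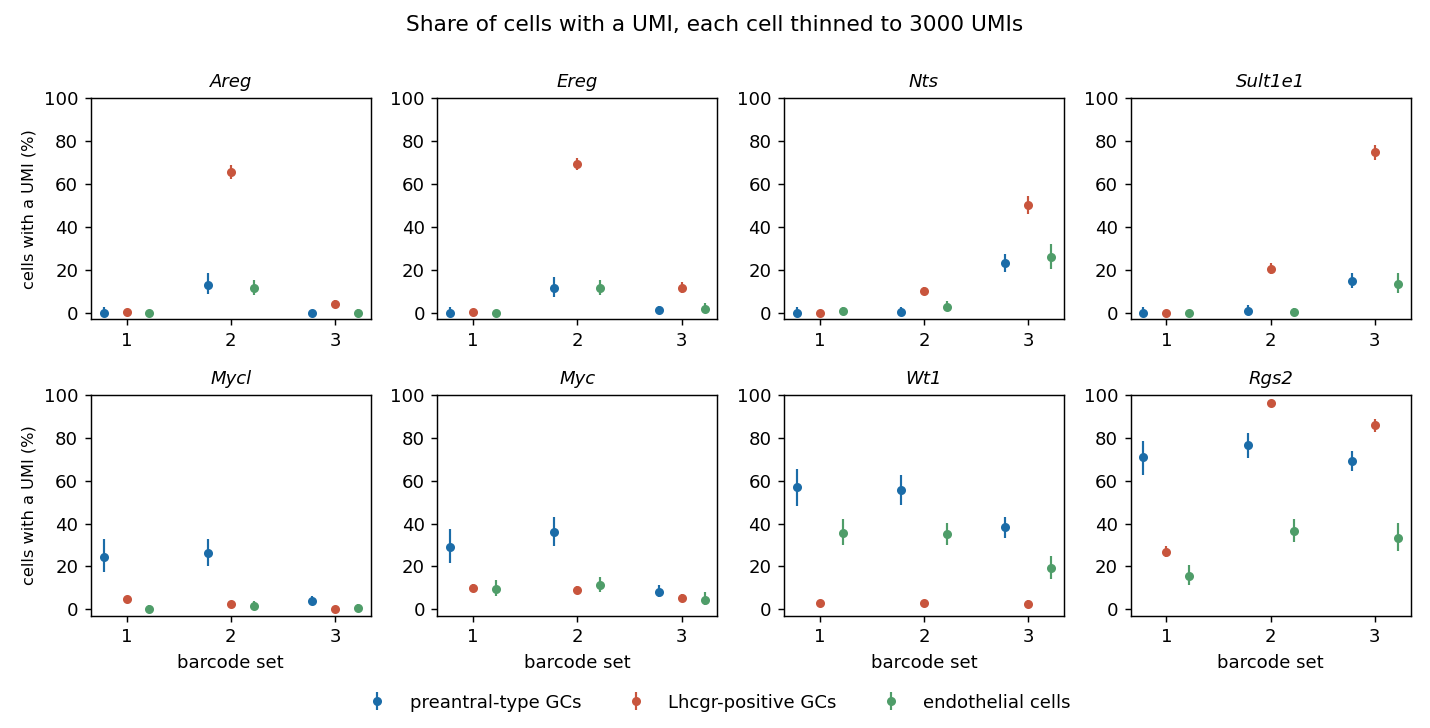
Share of cells (%) with a UMI of each gene after thinning to 3000 UMIs, by barcode set, in preantral-type GCs, Lhcgr-positive GCs and endothelial cells, with exact 95% binomial intervals. *Areg* in set 2 (13.1% against 11.4%) and *Nts* in set 3 (23.2% against 25.9%) lie near the endothelial cells, whereas *Mycl* in set 2 (26.2% against 1.76%) lies above them.

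Members also differed among themselves. Over 1323 genes at a level of 1 or more in each set, the median excess of the variance over the Poisson variance, divided by the squared mean, was 0.0850, 0.0921 and 0.0878 in sets 1, 2 and 3. The 12 leading genes by their smallest excess over the 3 sets were *Acta2*, *Cxcl1*, *Tpm1*, *Mgp*, *Cald1*, *Hsd3b1*, *Csrp2*, *Apoa1*, *Vcan*, *Gatm*, *Gm2044* and *Tmsb4x*. A gene with a large excess in only some sets is thus left out, such as *Cyp11a1* with 0.967, 45.4 and 23.8 in sets 1, 2 and 3. *Gatm* is a marker of the rule, so its spread was shaped by it. *Acta2*, *Tpm1*, *Cald1* and *Csrp2* encode proteins of the contractile or actin cytoskeleton, and for *Acta2* the excess of 74.1, 91.6 and 89.4 rests on the single cells named above. *Wt1* had an excess of 0.351, 0.432 and 0.407, above the median of all genes and below the named 12 in each set. *Amh* is a marker of the rule as well, so members without it had to carry 3 of the other 4, and they had *Gatm* at 4.46, 5.27 and 2.64 against 2.34, 2.48 and 1.3 in members with *Amh*. What follows is a description of that split. Members without an *Amh* UMI had *Tmsb4x* at 19.0, 16.5 and 27.2 against 8.64, 7.79 and 13.3 in those with one. *Cald1* was at 2.56, 2.14 and 1.83 against 0.867, 0.964 and 0.725, higher without *Amh* in each set for both genes. *Tpm1* was also higher without *Amh* in each set. Of the other leading genes, *Acta2*, *Cxcl1*, *Mgp*, *Hsd3b1*, *Csrp2*, *Apoa1*, *Vcan* and *Gm2044* changed direction between the sets. *Acta2* was at 0.317, 4.75 and 1.05 without *Amh* against 3.35, 0.579 and 3.18 with it.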

How the data were processed

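The authors deposited 1 table with a gene in each row and a cell in each column, in which each UMI count was divided by the cell's total, multiplied by 10000 and, after adding 1, given as its natural log. The submitters' processing notes name Cell Ranger, Seurat and mm10, without versions. UMI counts were worked back from the deposited values, and 100% came out whole within 0.01. Set totals were 81367055, 72906577 and 85756955 UMIs, and cells had 500 to 133658. Of the barcodes, 224 cells carry one that occurs in 2 sets, 7 members among them.

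Levels, ratios and shares carry exact Poisson, conditional binomial and Clopper-Pearson intervals at 95%, computed with Python 3.11.15, numpy 2.4.6, scipy 1.17.1 and pandas 2.3.3. Only the intervals of ratios were tested on simulated data, which were Poisson counts with no variance between cells. Members varied more than that, so the simulation does not show how the intervals hold for them. Genes were compared at a level of 0.5 or more. Named genes were the rule genes, listed genes, the 12 farthest in each direction of each comparison and the 8 farthest of each pair of sets. Also named were the 12 whose smallest excess variance over the 3 sets was largest. Members and lists were chosen with earlier results of these data known. Alternatives varied the rule, totals, minimum level, fold and cells.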

Additional observations from a re-analysis of the deposited data

Results flagged for a closer look

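*Rgs2*, which encodes a regulator of G protein signaling, was flagged because its ratio of preantral-type over Lhcgr-positive GCs lay on different sides of 1 in the barcode sets. It was not the only such gene, since *Kitl*, *Gja1* and *Gata4* above also changed side. The *Rgs2* ratios were 3.78, 0.347 and 0.372 for sets 1, 2 and 3. With each set taken as 1 library, the difference between the sets was not tested.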

How the results depend on the processing

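No paired analysis was possible because each barcode set was taken as 1 library and no result comes from a test. For 48 of the named genes, 720 ratios under alternatives were computed. Of these, 605 stayed within the interval of the reported value, 115 lay outside it but on the same side of 1, and 0 reversed. Genes named by rank were picked for ratios far from 1, where a reversal was unlikely from the start. The 0 reversals are therefore no measure of how stable the comparisons are. The other named genes are not part of these counts. The number of members was 396 with 4 of 5 markers, 1430 with 2 of 5 and 393 with the rule on thinned cells. Genes higher than in Lhcgr-positive GCs numbered 57 with 2 of 5 markers and 144 without the 50 most abundant genes, and those higher and lower than in other Lhcgr-negative GCs 34 and 24 with 2 of 5 markers. At a minimum level of 0.2, the higher and lower counts were 183 and 187 against Lhcgr-positive GCs, 109 and 97 against the others, 67 and 112 for set 2 over set 1, 194 and 322 for set 3 over set 1, and 230 and 221 for set 3 over set 2. At a minimum level of 1 they were 42 and 69, 32 and 29, 12 and 2, 51 and 51, and 45 and 51. At a fold of 1.5 they were 215 and 197, 125 and 126, 95 and 146, 352 and 425, and 430 and 315. For set 2 over set 1 the lower genes numbered 50 with 4 of 5 markers, 28 with no UMI of *Dcn* or *Cyp17a1*, 31 without the 50 most abundant genes and 7 without the cell with most UMIs of each gene. For set 3 over set 1 the higher genes numbered 145 with 4 and 166 with 2 of 5 markers. Leaving out 1 set in turn gave 115 to 168 higher and 139 to 216 lower genes against Lhcgr-positive GCs, and 77 to 97 and 75 to 130 against the others, since fewer sets had to pass. The counts moved most without set 1 (151 and 216 against Lhcgr-positive GCs, 130 lower against the others) and without set 3 (168, 176 and 116). Of the 12 leading genes by smallest excess variance over the sets, 4 were shared at a minimum level of 2. The cause of the other shifts was not tested. The alternatives chosen after seeing the data were those without the barcodes that occur in 2 sets and without the cell with most UMIs of each gene. The first kept 752 members, with 91 higher and 113 lower genes against Lhcgr-positive GCs. Depth limits genes below a level of about 0.5, where most members have no UMI.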
